A study of Mus musculus with 8 samples.

Results

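The transcription factors and regulators of the Hippo pathway were examined as 9 gene loci out of 21728 protein-coding genes. These were Tead1, Tead2, Tead3 and Tead4, which encode the TEAD DNA-binding factors, Yap1 and Wwtr1, which encode the co-activators YAP and TAZ, and Amotl2, Ankrd1 and Lats2, which are target genes of the pathway. The genes were chosen by name. Each locus was the GENCODE gene body in the mouse build mm10 with 20 kb added on each side, and every peak of the 8 peak lists that touched a locus was taken, with the height of its summit.

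CUT&Tag, in which an antibody tethers a transposase that tags the DNA nearby, had been run on fibroblasts of mouse embryos after 5 days of reprogramming. Per the methods of the study, these fibroblasts came from embryos that carry an Oct4-GFP reporter, and the factors were delivered with retroviral vectors. All groups received Oct4. The NanogWT groups, labelled Nanog+Oct4, also received wild-type Nanog, and the NanogBiD groups, labelled NanogN70+Oct4, received Nanog with a fragment of SS18 that binds BRG1 at its N-terminus. The labels do not use the name NanogBiD, and the study's text was the basis for equating it with NanogN70. Each arm had 1 peak list for FLAG-tagged NANOG, 1 for BRG1, the motor subunit of the BAF complex that moves nucleosomes, 1 for H3K27ac, a mark of active promoters and enhancers, and 1 for H3K4me1, a mark of enhancers. The labels give 100000 cells per sample, the methods a smaller number, and the lists do not separate reprogrammed from unconverted cells. Replicates had been merged before peaks were called and the reporting summary gives a general minimum for all experiments but not the number behind these lists. Each group was therefore 1 merged list, no test between arms was possible, and every interval covers counting error alone.

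TEAD factors bind DNA but activate transcription only together with YAP or TAZ. When the Hippo kinases are active, LATS kinases phosphorylate YAP and TAZ and keep them out of the nucleus, and when they are not, YAP and TAZ enter the nucleus and join TEAD at enhancers that often also bind AP-1. In cultured fibroblasts, which are spread on a stiff surface, YAP and TAZ are known to be largely nuclear, and the target genes include the pathway's own inhibitors.

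The lists held from 30859 to 74782 peaks. NanogBiD had more peaks than NanogWT for FLAG (74782 against 58940), BRG1 (53748 against 30859) and H3K27ac (42598 against 35452), and fewer for H3K4me1 (57156 against 72242), which is a ratio of 1.27, 1.74, 1.2 and 0.791. The number of sequenced tags is unknown and the lowest summit in each list had 6 to 8 tags, so a locus without a listed peak may still hold signal below the caller's threshold. As a check of the cell type, an H3K27ac peak lay within 2 kb of a start site for 7 of 8 fibroblast markers in both arms (all but Prrx1, summits of 11 to 44 tags in NanogWT and 11 to 28 in NanogBiD). Of the markers of other cells, such a peak was listed in NanogWT and NanogBiD for 1 and 2 of 8 pluripotency genes, 2 and 3 of 4 blood genes, 1 and 3 of 4 endothelial genes and 0 and 1 of 4 epithelial genes. In NanogWT and NanogBiD these peaks had 36 and 34 tags at Cd68, 20 and 19 at Csf1r, 16 and 20 at Tek and 14 and 16 at Tfcp2l1. Those in NanogBiD only had 24 tags at Ptprc, 20 at Tdgf1, 11 at Cdh5, 10 at Kdr and 11 at Krt8. Several were thus as high as those of fibroblast markers. Zfp42, Esrrb, Cdh1 and Epcam were among the markers with none in either arm. The part of other cells in the results at the 9 loci was not tested.

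The sequence around the FLAG summit is shown for 8 regions of the 9 loci. The first 4 were chosen by rule and are the region with the highest summit listed in NanogBiD only, in NanogWT only (at Yap1, tied with a region of Amotl2) and in both arms, and the highest in both arms that has a TEAD match. The other 4 were chosen after the values were seen, as regions with a BRG1 peak in NanogBiD only. Each stretch is the plus strand of mm10, read from the RefSeq GRCm38 genome, 5′ to 3′, and reaches 50 bp to each side of the higher summit. Capitals mark a match, on either strand, to GGAATG for TEAD, to TGACTCA for AP-1 or to ATGCAAAT for the OCT octamer, and none of the stretches overlaps an annotated exon.
Tead1 intron, chr7:112753454-112753554, FLAG in NanogBiD only, AP-1 match: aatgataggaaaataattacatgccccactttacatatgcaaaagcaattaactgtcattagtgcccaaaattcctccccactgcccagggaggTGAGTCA
Yap1 intron, chr9:7947475-7947575, FLAG in NanogWT only, no match: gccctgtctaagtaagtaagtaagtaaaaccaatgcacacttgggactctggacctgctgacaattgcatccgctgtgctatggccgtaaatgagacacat
Tead1 intron, chr7:112825440-112825540, FLAG in both arms, no match: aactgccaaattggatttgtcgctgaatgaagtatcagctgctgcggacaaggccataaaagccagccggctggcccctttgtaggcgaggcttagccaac
Tead1 promoter, chr7:112679089-112679189, FLAG in both arms, TEAD match: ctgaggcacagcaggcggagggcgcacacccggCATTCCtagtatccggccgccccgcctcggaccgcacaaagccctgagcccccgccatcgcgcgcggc
Tead1 intron, chr7:112823821-112823921, FLAG in NanogBiD only, AP-1 match: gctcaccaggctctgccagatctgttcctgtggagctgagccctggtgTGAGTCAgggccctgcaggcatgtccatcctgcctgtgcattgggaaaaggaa
Lats2 intron, chr14:57732804-57732904, FLAG in both arms, octamer match: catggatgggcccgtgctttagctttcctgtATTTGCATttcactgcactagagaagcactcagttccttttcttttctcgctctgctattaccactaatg
Upstream of Ankrd1, chr19:36129347-36129447, FLAG in both arms, TEAD match: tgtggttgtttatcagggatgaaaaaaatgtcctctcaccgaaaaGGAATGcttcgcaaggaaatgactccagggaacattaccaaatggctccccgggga
Upstream of Ankrd1, chr19:36137778-36137878, FLAG in both arms, no match: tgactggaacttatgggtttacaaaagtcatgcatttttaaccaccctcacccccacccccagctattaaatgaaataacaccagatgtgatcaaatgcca

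Both arms had FLAG peaks at all 9 loci, and NanogBiD had more BRG1 and fewer H3K4me1 peaks than NanogWT. Over the 9 loci BRG1 had 34 peaks in NanogWT and 55 in NanogBiD, with a ratio of 1.62 (exact binomial 95% interval 1.04 to 2.56), where the windows of all protein-coding genes gave 1.42 and the whole lists 1.74. The interval held 1 when Tead1, Tead4, Wwtr1 or Ankrd1 was left out (lower bounds 0.947, 0.988, 0.999 and 0.932), with 5 kb flanks, at scores of 100 or more and at summits of at least 15 tags. When each list was cut to its 20000 best-scoring peaks, the ratio at the 9 loci was 0.957 for BRG1, 0.833 for FLAG, 0.793 for H3K27ac and 0.933 for H3K4me1. This cut gives both arms lists of equal size, so the whole-list ratio is 1 by construction. These values, all below 1, can therefore not be set beside 1.42 or 1.74. With summits of at least 15 tags the H3K27ac ratio was 0.935. BRG1 peaks were more numerous in NanogBiD at 8 loci and fewer at 1, Tead3, and over all protein-coding genes with a BRG1 peak in either arm 53.2% had more and 12.7% fewer. FLAG peaks numbered 52 and 58, a ratio of 1.12 (0.754 to 1.65) against 1.21 over all gene windows, with more in NanogBiD at 6 loci and fewer at 1, Amotl2 (50.2% and 17.6% of genes with a FLAG peak in either arm, and the shares that follow are likewise of genes with a peak of that target). H3K27ac peaks numbered 47 and 51, a ratio of 1.09 (0.716 to 1.65) against 1.13, with more at 5 loci and fewer at 2 (37.4% and 17.4% of genes). H3K4me1 peaks numbered 72 and 48, a ratio of 0.667 (0.453 to 0.974) against 0.819, with more at 0 loci and fewer at 7 (19.7% and 51.6% of genes). That interval reached 1 or more without Tead1, Tead4, Yap1, Wwtr1 or Lats2 (upper bounds 1.05, 1.01, 1.01, 1 and 1.04), at scores of 100 or more, with 50 kb flanks and in the 20000 best-scoring peaks (0.417 to 2.07). With all listed peaks the direction of each count was thus the one seen over all genes, and windows of neighbouring genes share peaks.

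**Figure D1:**
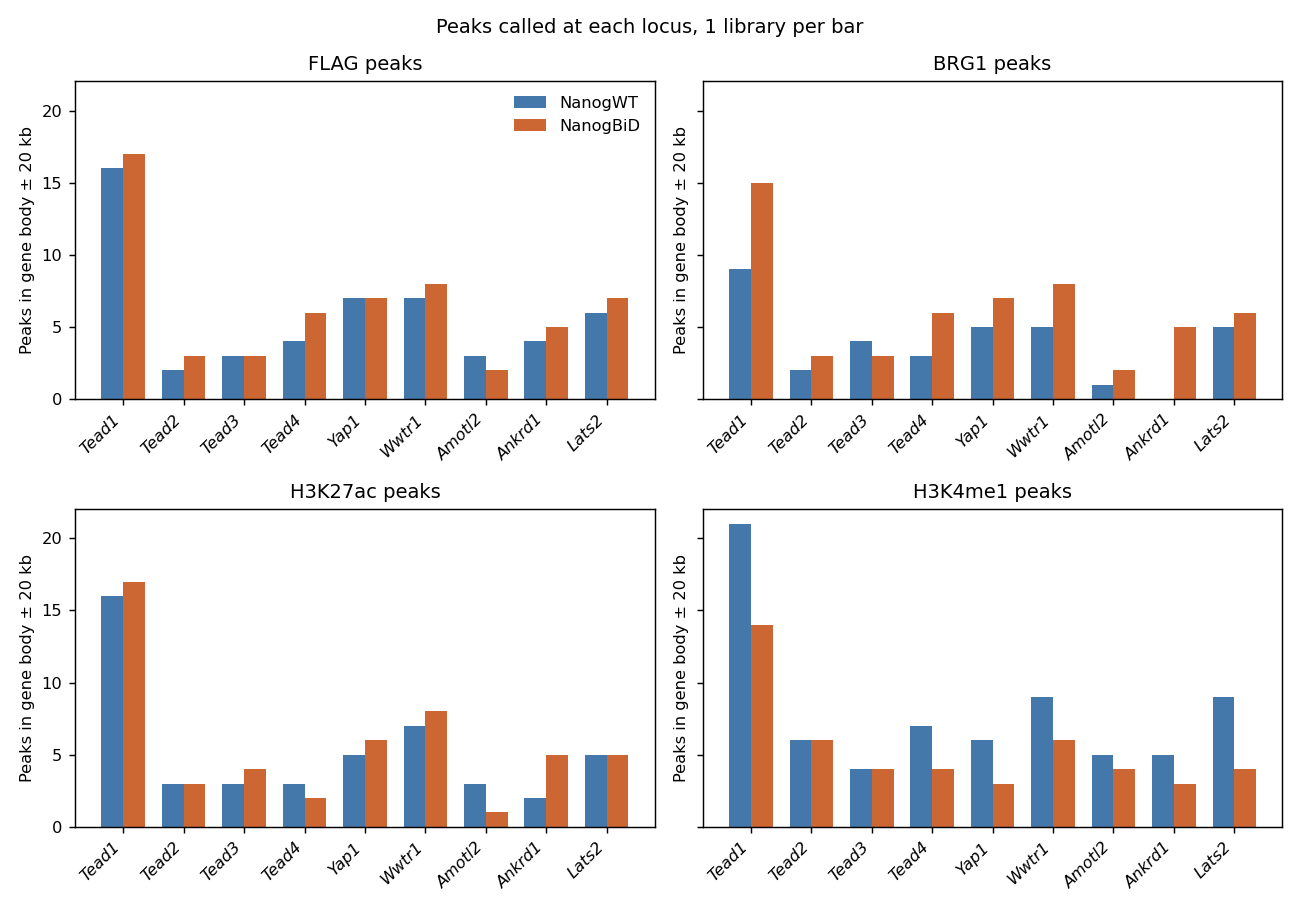
Number of peaks (y axis) at each of the 9 loci (x axis) for the 4 targets, with NanogWT in blue and NanogBiD in orange and 1 merged list per bar. BRG1 peaks run from 0 (Ankrd1) to 9 (Tead1) in NanogWT and from 2 (Amotl2) to 15 (Tead1) in NanogBiD, and H3K4me1 bars are lower in NanogBiD or equal at every locus.

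When the peaks of both arms were merged into regions, the 9 loci held 66 FLAG regions, of which 43 had a peak in both arms, 14 in NanogBiD only and 9 in NanogWT only. The shared part was 65.2% (Wilson 95% interval 53.1 to 75.5), against 50.5% of all FLAG regions and 52.9% of those in the window of any protein-coding gene, and 33.7% and 15.8% of all FLAG regions were in NanogBiD only and NanogWT only. For BRG1 29 of 60 regions were shared, 26 were in NanogBiD only and 5 in NanogWT only. The shared part of 48.3% (36.2 to 60.7) lay beside 41.6% of all BRG1 regions, of which 48.4% were in NanogBiD only and 9.91% in NanogWT only. Of BRG1 regions in any gene window 46.4% were shared, 42.8% in NanogBiD only and 10.8% in NanogWT only, close to the values at the 9 loci. For H3K27ac 39 of 59 regions were shared, 66.1% (53.4 to 76.9) against 56.4% of all, with 12 in NanogBiD only and 8 in NanogWT only (29.1% and 14.6% of all). For H3K4me1 42 of 77 were shared, 54.5% (43.5 to 65.2) against 47.9% of all, with 6 in NanogBiD only and 29 in NanogWT only (17.3% and 34.8% of all). In the window of any protein-coding gene the shared part was 59.9% for H3K27ac and 50.4% for H3K4me1. With windows of 100 bp each side of the summits the shared part was 32.4% for H3K27ac, and for H3K4me1 it was 32.3% at scores of 100 or more and 31.8% in the 20000 best-scoring peaks. The 6 H3K4me1 regions in NanogBiD only lay at Tead1, Wwtr1, Amotl2 and Ankrd1, with summits of 10 to 17 tags.

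Summit heights are numbers of tags that the authors did not scale to depth, so their ratios are given as log2 of NanogBiD over NanogWT beside the median over all shared regions. At the 43 shared FLAG regions the median was 0.14 (order-statistic 95% interval 0.08 to 0.39) and over all shared FLAG regions 0.15, and without Tead1 or Wwtr1 it was 0.28 or 0.31. At the 29 shared BRG1 regions it was -0.05 (-0.30 to 0.17), where all shared BRG1 regions gave 0.14 and those in gene windows 0.10. The median BRG1 ratio at shared regions was thus near 0, beside a larger number of BRG1 regions listed in NanogBiD alone, and its sign was not stable, with 0.06 at summits of at least 15 tags and 0.03 without Tead3. The medians of H3K27ac and H3K4me1 were 0.00 and -0.25, against 0.08 and -0.18 over all shared regions. A ratio at least 1.5-fold beyond the median shift was seen in 6 FLAG regions towards NanogBiD and 2 towards NanogWT (15% and 12.9% of all shared regions), in 0 and 6 BRG1 regions (14.0% and 8.14%), in 2 and 1 H3K27ac regions (6.14% and 5.24%) and in 1 and 2 H3K4me1 regions (3.68% and 3.51%). None of the 153 height ratios at shared regions of the 9 loci had a counting interval that left out 1, so single ratios are given as values only.

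**Figure D2:**
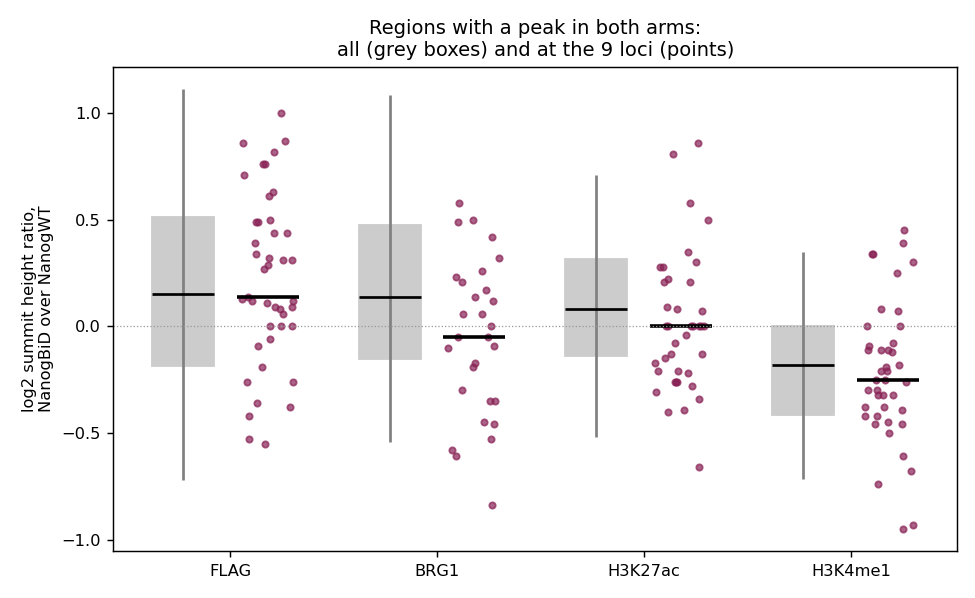
Summit height in NanogBiD over that in NanogWT, as log2 (y axis), at the shared regions of each target (x axis). Grey boxes reach from the lower to the upper quartile of all shared regions with whiskers to the 5th and 95th percentile, points are the shared regions of the 9 loci, and black lines are medians, which for the points lie at 0.14 (FLAG), -0.05 (BRG1), 0.00 (H3K27ac) and -0.25 (H3K4me1).

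Among the TEAD genes Tead1 has the longest body, 227.5 kb on the plus strand of chromosome 7 from 112679318 to 112906807, and held 21 of the 71 sites that FLAG and BRG1 peaks of both arms formed at the 9 loci. Its peaks in NanogWT and NanogBiD numbered 16 and 17 for FLAG, 9 and 15 for BRG1, 16 and 17 for H3K27ac and 21 and 14 for H3K4me1. At its promoter the summits were 24 and 26 tags for FLAG, 25 and 29 for BRG1, 36 and 32 for H3K27ac and 19 and 18 for H3K4me1, so that all 4 targets were present in both arms. This is the promoter shown above, where the FLAG summit lay 0.179 kb upstream of the start and CATTCC, the complement of the TEAD hexamer, began at base 34 of the printed stretch. The highest FLAG summit of all 9 loci lay 74.2 kb into the gene in an intron, with 46 tags (exact Poisson 95% interval 33.7 to 61.4) in NanogBiD and no listed peak in NanogWT. The same region had a BRG1 summit of 22 tags in NanogBiD only, an H3K27ac summit of 11 in NanogBiD only, and H3K4me1 summits of 14 and 13. Its printed sequence holds an AP-1 match at base 95. A region 144.6 kb into the gene was also listed in NanogBiD only, with 34 tags for FLAG and 27 for BRG1, no peak of either histone mark, and an AP-1 match at base 49, which spans the summit. Its neighbour at 146.2 kb, by contrast, had FLAG in both arms, with 42 tags in NanogWT, the highest shared FLAG summit of the 9 loci. In NanogBiD it had 35 tags, tied with a region of the Tead3 window as the highest shared summit of that arm. BRG1 had 21 and 28 tags there, H3K27ac 30 and 30 and H3K4me1 22 and 19. BRG1 was not always in NanogBiD alone here, since 81.5 kb into the gene it had 16 tags in NanogWT and none listed in NanogBiD.

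**Figure D3:**
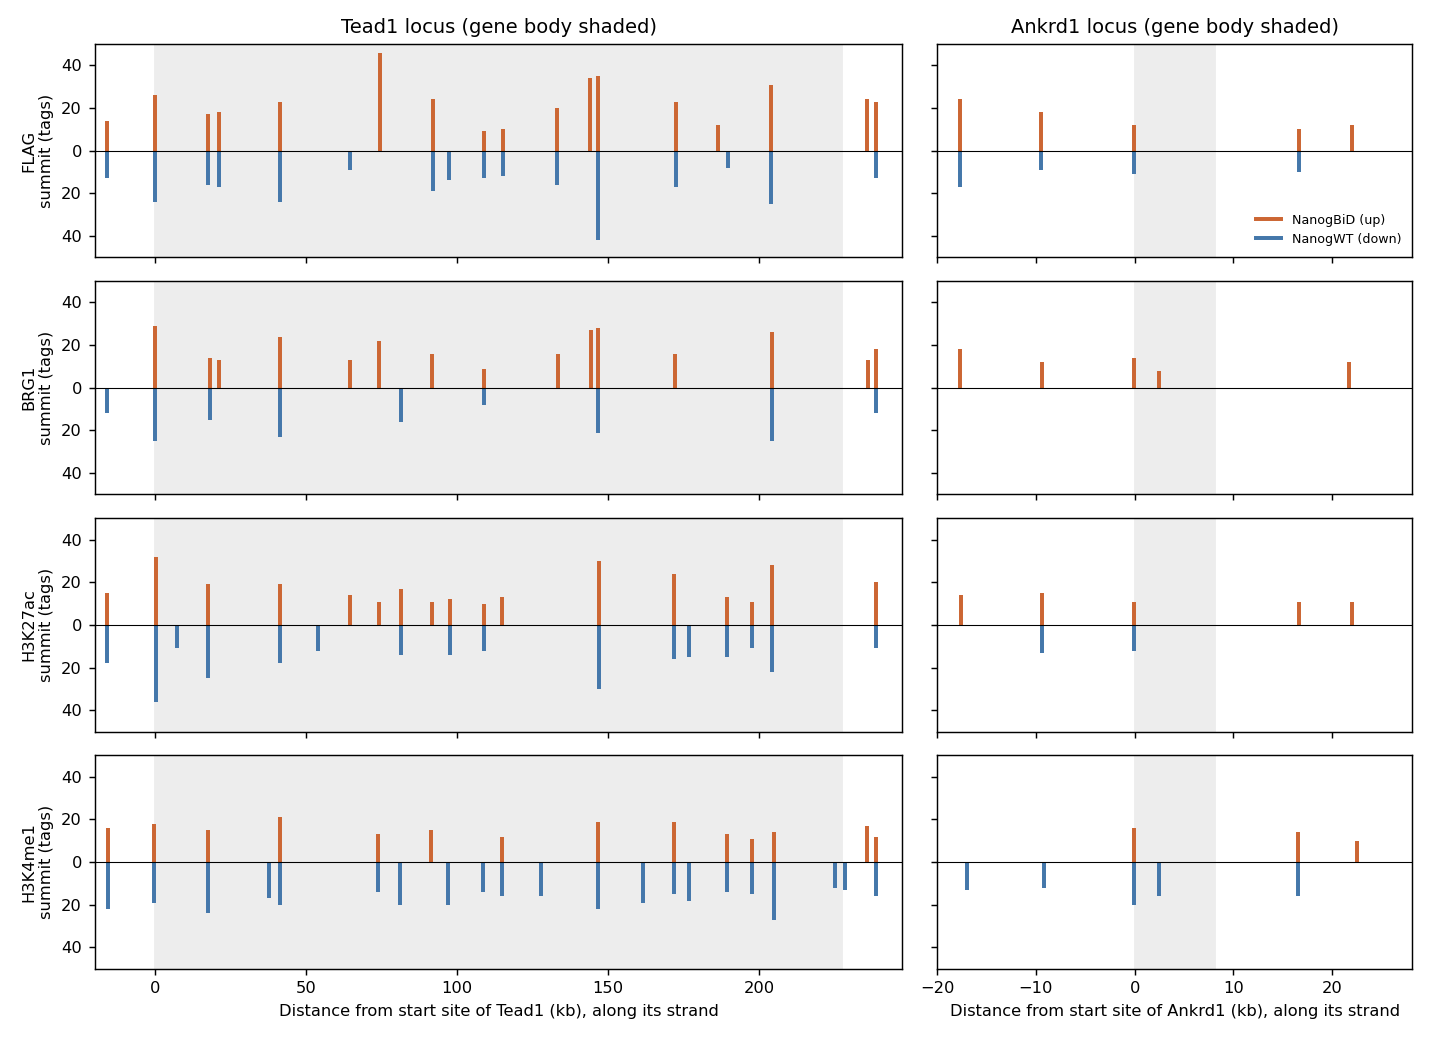
Summit height in tags (y axis) of each peak region at Tead1 and Ankrd1, drawn at the middle of the region by its distance from the gene's start (x axis, kb), with NanogBiD upwards in orange, NanogWT downwards in blue and the gene body shaded. At Tead1 most FLAG bars pair between arms and the bar of 46 tags has no partner, and at Ankrd1 the 5 BRG1 bars all point upwards.

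Tead2, a gene of 17.9 kb on chromosome 7 (45215753 to 45233644, plus strand), had 2 and 3 FLAG peaks, 2 and 3 BRG1 peaks, 3 and 3 H3K27ac peaks and 6 and 6 H3K4me1 peaks in NanogWT and NanogBiD. The additional FLAG and BRG1 peaks of NanogBiD, with 9 tags each, lay at the same site 10.9 kb upstream, at the promoter of the neighbouring gene Ccdc155. At the Tead2 promoter FLAG summits were 12 and 12 tags and H3K27ac summits 34 and 28. The highest FLAG summits of its window, 15 and 21 tags, lay 19.4 kb from its start at the promoter of the neighbouring gene Cd37. BRG1 had 14 and 11 tags at the Tead2 promoter and 12 and 17 at that of Cd37. Tead3 (19.1 kb, chromosome 17, 28331671 to 28350817, minus strand) was the locus with fewer BRG1 peaks in NanogBiD, 4 against 3, while FLAG had 3 and 3, H3K27ac 3 and 4 and H3K4me1 4 and 4. At the Tead3 promoter the FLAG summits were 13 and 22 tags and the BRG1 summits 25 and 14, so FLAG was higher and BRG1 lower in NanogBiD. The region at 22.5 kb, at the promoter of Rpl10a, had the same order, with FLAG at 12 and 22 and BRG1 at 26 and 17. A BRG1 peak of 14 tags in a Tead3 intron was in NanogWT only. The highest FLAG summits of this window, 29 and 35 tags, lay at the promoter of Fance, 37.4 kb from the Tead3 start, with BRG1 at 29 and 28.

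Tead4, best known for its role in the first lineage choice of the embryo, had lower maximal FLAG and H3K27ac summits in its window than the other TEAD genes, 13 and 19 tags for FLAG and 19 and 23 for H3K27ac. The FLAG maxima of the Tead2 and Tead3 windows lay at promoters of neighbouring genes, however. At their own promoters Tead2 had FLAG summits of 12 and 12 tags and Tead3 of 13 and 22, so the FLAG order depends on those neighbours. In the Tead4 window (gene of 76.5 kb, chromosome 6, 128224288 to 128300823, minus strand) FLAG peaks numbered 4 and 6, BRG1 3 and 6, H3K27ac 3 and 2 and H3K4me1 7 and 4. At its promoter FLAG had 12 and 13 tags, BRG1 16 and 15, H3K27ac 19 and 18 and H3K4me1 19 and 16, close to equal in the arms. Its highest FLAG summit, 19 tags, was an intronic region 18.5 kb from the start that was in NanogBiD only, with BRG1 at 8 tags, a TEAD match and no peak of either mark. Over the 4 TEAD genes together there were 25 and 29 FLAG peaks, 18 and 27 BRG1 peaks, a ratio of 1.5 (0.796 to 2.89), 25 and 26 H3K27ac peaks and 38 and 28 H3K4me1 peaks.

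Yap1 encodes YAP, which carries the activating domain that TEAD lacks. At Yap1 (72.6 kb, chromosome 9, 7931999 to 8004596, minus strand) FLAG peaks numbered 7 and 7, BRG1 5 and 7, H3K27ac 5 and 6 and H3K4me1 6 and 3. The promoter had FLAG summits of 16 and 17 tags, BRG1 of 17 and 20, H3K27ac of 30 and 32 and H3K4me1 of 16 and 15, again with every target in both arms. Inside the gene, 3 intronic sites at 25.4, 31.3 and 51.3 kb had FLAG in both arms and BRG1 in NanogBiD only. Their FLAG summits were 11 and 18, 13 and 22, and 11 and 20 tags in NanogWT and NanogBiD, and their BRG1 summits 10, 14 and 12 tags. The highest FLAG summit of the window, 26 tags in NanogBiD against 17, lay at 44.1 kb, where the BRG1 region that holds the FLAG summit had 12 tags in NanogWT and 15 in NanogBiD, and a separate BRG1 region beside it had 18 tags in NanogWT only. The intronic region at 57.1 kb, tied with a region of Amotl2 as the highest with FLAG in NanogWT only, had 15 FLAG tags in that arm, BRG1 at 12 and 12, H3K27ac at 17 and 13 and H3K4me1 at 24 in NanogWT and no peak in NanogBiD. At this site BRG1 was thus listed with the same height in both arms although FLAG was not.

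Wwtr1, which encodes TAZ, had all 4 targets at its promoter in both arms. The FLAG summits there were 33 and 29 tags, BRG1 29 and 28, H3K27ac 42 and 42 and H3K4me1 25 and 21. Over its window (gene of 120.3 kb, chromosome 3, 57455649 to 57575910, minus strand) the peaks numbered 7 and 8 for FLAG, 5 and 8 for BRG1, 7 and 8 for H3K27ac and 9 and 6 for H3K4me1. The 3 additional BRG1 peaks were regions of 13, 11 and 8 tags at 127.4, 20 and 12.7 kb from the start. FLAG was in NanogBiD only at the first and second of these, with 18 and 11 tags, and in both arms at the third, with 10 and 11. At 25 kb NanogWT had the higher summit for every target, with FLAG at 22 and 15, BRG1 at 13 and 9, H3K27ac at 19 and 12 and H3K4me1 at 14 and 13.

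Amotl2 encodes an angiomotin-like scaffold that holds YAP at cell junctions and is itself induced by YAP. It was the locus with fewer FLAG peaks in NanogBiD, 3 against 2, and it had 1 and 2 BRG1 peaks, 3 and 1 H3K27ac peaks and 5 and 4 H3K4me1 peaks (gene of 16.7 kb, chromosome 9, 102716672 to 102733418, plus strand). At its first promoter the FLAG summits were 25 and 34 tags, BRG1 32 and 28, H3K27ac 37 and 43 and H3K4me1 17 and 21. The second BRG1 peak, 16 tags in NanogBiD only, lay in an intron 9.74 kb from the start, within 2 kb of another annotated start site, where FLAG had 11 and 17 tags and H3K4me1 20 tags in NanogWT and none listed in NanogBiD. The FLAG peak that NanogBiD lacked had 15 tags in NanogWT and lay 30.2 kb from the start, with H3K27ac at 14 tags in NanogWT and none listed in NanogBiD.

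Ankrd1, which encodes a muscle ankyrin repeat protein and is among the most used readouts of YAP activity, was the locus with no BRG1 peak in NanogWT and 5 in NanogBiD. The same order, no peak in NanogWT and at least 1 in NanogBiD, was found at 1433 of the 17313 genes with a BRG1 peak in either arm. The gene is 8.14 kb long (chromosome 19, 36111961 to 36120099, minus strand), and its FLAG peaks numbered 4 and 5, H3K27ac 2 and 5 and H3K4me1 5 and 3. The BRG1 summits in NanogBiD were 18 tags at 17.7 kb upstream, 12 at 9.3 kb upstream, 14 at the promoter, 8 in the intron at 2.29 kb and 12 at 21.6 kb, in an intron and at the promoter of Rpp30. FLAG was also listed in NanogWT at 3 of these, with 17 and 24 tags at 17.7 kb upstream, 9 and 18 at 9.3 kb upstream and 11 and 12 at the promoter. H3K27ac had 14 tags in NanogBiD only at 17.7 kb upstream, 13 and 15 at 9.3 kb upstream and 12 and 11 at the promoter. H3K4me1 mostly differed in the other direction, with 13 and 12 tags at the upstream sites in NanogWT and no listed peak in NanogBiD, and 20 and 16 at the promoter, but at 21.6 kb it had 10 tags in NanogBiD only. The site at 9.3 kb upstream holds GGAATG at base 46 of the printed stretch, a match that spans the summit. The 5 BRG1 summits of the locus had between 8 and 18 tags, where each BRG1 list had a median of 13 and a lowest summit of 6.

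Lats2 encodes a kinase that phosphorylates YAP and TAZ and is also induced by them. In its window (68.7 kb, chromosome 14, 57689662 to 57758388, minus strand, overlapped by the gene model Gm49361) FLAG peaks numbered 6 and 7, BRG1 5 and 6, H3K27ac 5 and 5 and H3K4me1 9 and 4. No FLAG or BRG1 site lay at its outermost start, and the nearest, at 4.39 kb, had FLAG at 10 and 14 tags and BRG1 at 9 in NanogBiD only. The highest FLAG summit of the window in NanogWT, 36 tags against 27 in NanogBiD, lay 25.5 kb from that start, within 2 kb of an internal start site of Lats2. There BRG1 had 18 tags in NanogBiD and no listed peak in NanogWT, while FLAG was higher in NanogWT. A wide H3K27ac peak of NanogBiD extended over this site, but its summit of 32 tags lay at the site 27.6 kb from the start, where NanogWT had 33, so no difference in H3K27ac height was measured here. This is the stretch with the octamer match, at base 32. The highest BRG1 summits, 23 and 25 tags, lay at 51.2 kb together with FLAG at 27 and 33, the latter the highest of NanogBiD, and H3K27ac at 41 and 43.

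**Figure D4:**
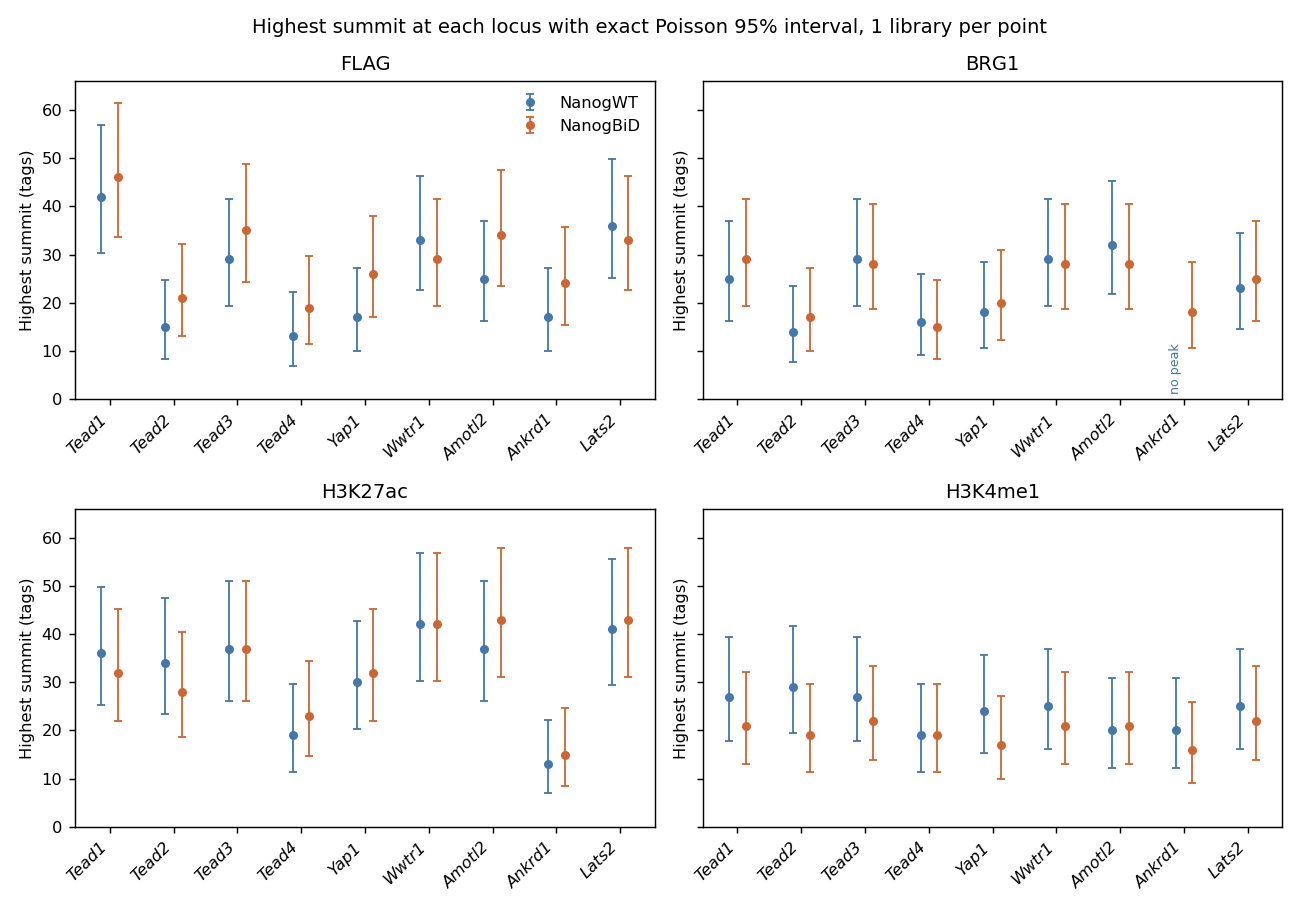
Highest summit in tags (y axis) at each of the 9 loci (x axis) for the 4 targets, with exact Poisson 95% intervals, NanogWT in blue and NanogBiD in orange. FLAG points are higher in NanogBiD at 7 of 9 loci (64.8% of all genes with a peak in both arms) and H3K4me1 points lower at 7 of 9 (68.5%), and the intervals of the arms overlap in the 35 pairs with a peak in both arms, BRG1 at Ankrd1 having none in NanogWT.

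The highest summit of a locus was higher in NanogBiD at 7 loci and lower at 2 (Wwtr1 and Lats2) for FLAG, and for BRG1 higher at 4 and lower at 4, with Ankrd1 left out. For H3K27ac it was higher at 5, lower at 2 and equal at 2, and for H3K4me1 higher at 1 (Amotl2), lower at 7 and equal at 1. Over all protein-coding genes with a peak of the target in both arms it was higher in 64.8% and lower in 29.1% for FLAG, 53.3% and 37.7% for BRG1, 54.8% and 36.4% for H3K27ac and 22.3% and 68.5% for H3K4me1. The FLAG and H3K4me1 counts thus ran the way of the whole lists. These heights were not scaled to depth. None of these 35 height ratios had an interval that left out 1. Heights of different targets come from different antibodies and were not compared with each other.

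FLAG and BRG1 peaks of both arms were then merged into 71 sites, 13 within 2 kb of a start of one of the 9 genes, 5 at promoters of other protein-coding genes and 53 away from both. Of the 71, 25 had all 4 peaks, which is 35.2% against 23.7% of the 93352 sites of the genome. A further 15 had FLAG in both arms and BRG1 in NanogBiD only (21.1% against 15.2%), spread over 7 of the 9 loci, and 8 had FLAG and BRG1 in NanogBiD only (11.3% against 11.1%). FLAG in NanogBiD only without BRG1 was found at 4 sites, 5.63% against 18.5%, and FLAG in NanogWT only without BRG1 at 6, 8.45% against 11.4%. Sites with all 4 peaks were thus more frequent at these loci than in the whole genome, and sites with FLAG alone less frequent, as values and without a test. The genome sites include those outside gene windows, and shares of these classes within gene windows were not computed. FLAG peaks in any gene window overlapped BRG1 in 49.9% (NanogWT) and 67.2% (NanogBiD), above the 44.1% and 64.7% of the whole lists. The difference can therefore not be ascribed to these loci in particular.

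**Figure D5:**
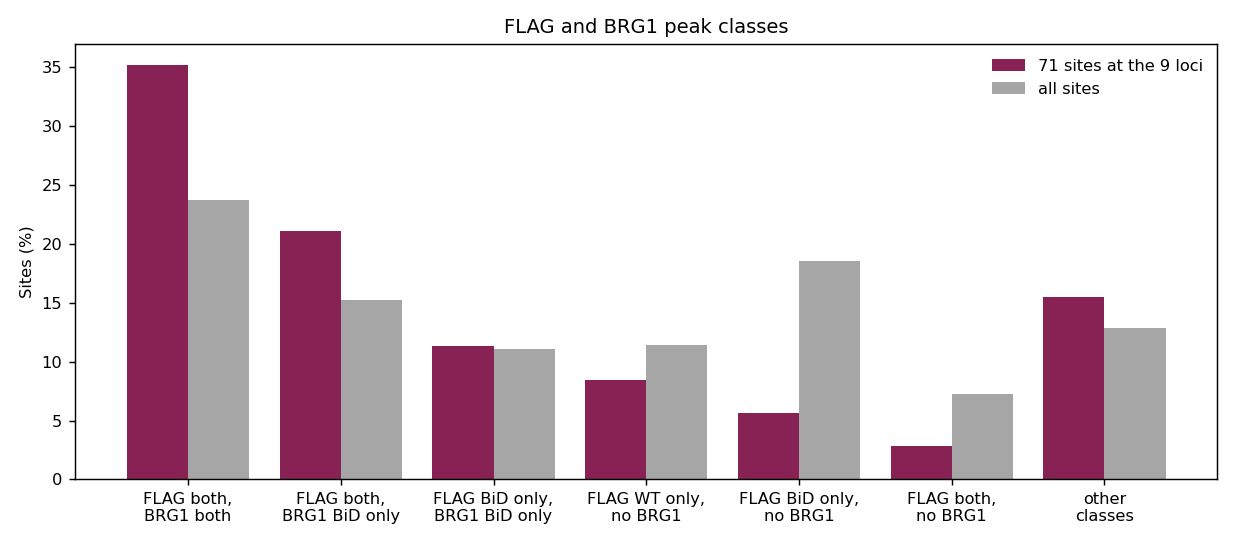
Share of sites in percent (y axis) by the arms in which FLAG and BRG1 peaks were listed (x axis), for the 71 sites of the 9 loci in purple and all 93352 sites in grey. Sites with both targets in both arms make up 35.2% and 23.7%, and those with FLAG in NanogBiD only and no BRG1 5.63% and 18.5%.

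The 15 sites with FLAG in both arms and BRG1 in NanogBiD only had FLAG summits of 9 to 36 tags in NanogWT (median 13) and 11 to 27 in NanogBiD (median 18). FLAG was higher in NanogBiD at 14 of the 15, the exception being the Lats2 site at 25.5 kb, and the median log2 ratio was 0.44, against 0.38 over all 14212 such sites of the genome, of which 71.7% were higher. At the 25 sites with all 4 peaks the median log2 FLAG ratio was 0.09, with 15 higher, 8 lower and 2 equal, against 0.10 over all such sites. An H3K27ac peak overlapped 4 of the 15 sites in NanogWT and 9 in NanogBiD, 5 in NanogBiD only and 0 in NanogWT only, and 1 of these 5 was the Lats2 site reached by the wide peak. Over all such sites the H3K27ac shares were 24.8% and 52.7%. H3K4me1 overlapped 8 and 4 of the 15, with 1 in NanogBiD only and 5 in NanogWT only, where over all such sites the shares were 51.5% and 52.1%. At the 8 sites with FLAG and BRG1 in NanogBiD only, H3K27ac overlapped 2 and 5 (6.72% and 28.5% of all such sites). H3K4me1 overlapped 2 and 6 of these 8, with 4 in NanogBiD only and 0 in NanogWT only (23.2% and 33.7%). The 25 sites with all 4 peaks each carried H3K27ac in both arms, where 87.2% (NanogWT) and 92.1% (NanogBiD) of all such sites did. The 4 sites with FLAG in NanogBiD only and no BRG1, at Tead1, Tead4, Yap1 and Lats2, carried neither mark in either arm. Over all such sites 3.66% and 8.87% carried H3K27ac and 17.1% and 18.9% H3K4me1. Of the 6 sites with FLAG in NanogWT only and no BRG1, 5 carried H3K27ac in NanogWT and 2 in NanogBiD, against 17.2% and 8.91% of all such sites.

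FLAG peaks at the 9 loci overlapped a BRG1 peak of the same arm in 28 of 52 cases in NanogWT, 53.8% (40.5 to 66.7), and in 50 of 58 in NanogBiD, 86.2% (75.1 to 92.8). With summits of at least 15 tags the shares were 53.8% and 59% (43.4 to 72.9). At scores of 100 or more they were 51.6% (34.8 to 68) and 66.7% (51 to 79.4). In both settings the intervals of the arms overlapped. Over the whole FLAG lists these shares were 44.1% and 64.7%, and over FLAG peaks in any gene window 49.9% and 67.2%. Overlap with H3K27ac was 69.2% and 74.1% in NanogWT and NanogBiD (48.9% and 48.3% over the lists), and overlap with H3K4me1 76.9% and 60.3% (63.6% and 49%). H3K27ac thus lay under a larger share of FLAG peaks at the 9 loci than over the lists in both arms, and the share in any gene window was 54.7% and 53.5%.

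A TEAD match lay within 50 bp of the FLAG summit in 4 of 52 cases in NanogWT, 7.69% (3.03 to 18.2), and in 6 of 58 in NanogBiD, 10.3% (4.83 to 20.8). Over all FLAG summits it was found in 7.4% and 6.75%, and 1 kb away from them in 5.29% and 5.42%. Within 25 bp the shares at the 9 loci were 0 of 52 in NanogWT (0 to 6.88%) and 6 of 58, 10.3% (4.83 to 20.8), in NanogBiD. These intervals overlapped, and of all FLAG summits 3.67% and 3.32% had a match. An AP-1 match was found in 1.92% and 8.62% at the 9 loci and in 5.82% and 7.68% of all FLAG summits, and an octamer match in 3.85% and 1.72% against 1.81% and 2.49%. The 5 AP-1 matches in NanogBiD lay at Tead1 (2), Tead4 (1) and Yap1 (2), and the 6 TEAD matches at Ankrd1 (2), Tead1, Tead3, Tead4 and Wwtr1 (1 each). Within 50 bp the intervals of the 9 loci for these 3 motifs held the values of the whole lists in both arms. A match is a description of the letters and not of binding by the factor.

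Other genes of the pathway were read from lists fixed by name. Of 20 genes of the kinase cassette and its upstream regulators, BRG1 peaks were more numerous in NanogBiD at 14 and fewer at 3 (83 and 112 peaks in all), FLAG peaks at 12 and 5 (122 and 144), H3K27ac at 4 and 4 (104 and 104) and H3K4me1 at 2 and 16 (159 and 123). The BRG1 ratio of this list was 1.35 (1.01 to 1.81), beside 1.42 over all gene windows, and of all genes with a peak the shares with more and fewer were 53.2% and 12.7% for BRG1, 50.2% and 17.6% for FLAG, 37.4% and 17.4% for H3K27ac and 19.7% and 51.6% for H3K4me1. Fat4, an atypical cadherin upstream of the pathway, had 7 and 11 FLAG and 3 and 7 BRG1 peaks. Amotl1, a relative of Amotl2, had 9 and 13 FLAG and 6 and 9 BRG1 peaks, and Stk4, which encodes the kinase MST1, 5 and 7 and 3 and 7. Of 10 co-regulators of YAP and TEAD, 8 had a BRG1 peak, 5 with more and 1 with fewer in NanogBiD. Their BRG1 peaks numbered 29 and 41, a ratio of 1.41 (0.858 to 2.36), and FLAG peaks 42 and 53, with more at 5 and fewer at 1. H3K27ac peaks numbered 31 and 37, with more at 3 and fewer at 1, and H3K4me1 peaks 56 and 50, with more at 3 and fewer at 3. Tjp1, which encodes a tight junction protein, had 9 and 10 FLAG and 3 and 8 BRG1 peaks, and Vgll4, a TEAD co-repressor, 10 and 13 FLAG and 9 and 10 BRG1 peaks.

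Of 18 further target genes of YAP and TEAD, 13 had more BRG1 peaks in NanogBiD and 3 fewer (53.2% and 12.7% of all genes with a BRG1 peak). Their BRG1 peaks numbered 71 and 122, a ratio of 1.72 (1.27 to 2.34) where all gene windows gave 1.42 and the whole lists 1.74. FLAG peaks numbered 137 and 167, with more at 12 genes and fewer at 1 (50.2% and 17.6% of all genes with a FLAG peak). H3K27ac peaks numbered 94 and 97, with more at 8 and fewer at 5 (37.4% and 17.4%). H3K4me1 peaks numbered 154 and 121, with more at 4 and fewer at 9 (19.7% and 51.6%). Asap1, which encodes an ARF GTPase-activating protein, had 20 and 27 FLAG and 7 and 20 BRG1 peaks. Rbms3, which encodes an RNA-binding protein, had 47 and 53 FLAG and 20 and 32 BRG1 peaks, and Dock5, an exchange factor for RAC, 9 and 14 and 7 and 11. These are long genes with many peaks, which the naming by difference in peak number favours. The standard readouts Ccn1 and Ccn2, named here because of their wide use and not by that rule, had 4 and 3 and 1 and 5 BRG1 peaks and 3 and 4 and 5 and 7 FLAG peaks. For comparison, BRG1 peaks numbered 23 and 27 at 7 AP-1 factor genes, a ratio of 1.17 (0.648 to 2.14), 3 with more and 0 with fewer in NanogBiD. At 9 naive pluripotency genes they numbered 8 and 17, a ratio of 2.12 (0.869 to 5.69), 6 with more and 1 with fewer. The difference between these lists was not tested.

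The genes whose highest summits in the 8 lists, as log2 of the height plus 1, lay nearest to the median profile of the 9 loci were Ctse and Rab7b (Euclidean distance 0.21 each, from windows with the same summits) and Fut11 (0.23). Among the 9 genes Tead3 lay nearest to that profile (0.55) and Ankrd1 farthest (4.99), the latter through its missing BRG1 peak in NanogWT.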

How the data were processed

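Peak lists and summit lists of 8 CUT&Tag samples (4 targets in 2 arms, 1 merged list per group) were used. Per the methods and the submitters' processing notes, the authors trimmed reads with Trim Galore 0.6.4, aligned them to mm10 with Bowtie2 2.4.5, filtered them with SAMtools 1.16.1, merged replicates and called peaks with MACS 1.4.2 without a named control library. The score in the deposited peak lists is the significance score of MACS (lowest value 50.0), and the signal in the deposited summit lists is the tag pileup at the summit, called its height. The authors scaled neither to depth, and the depth of each library is unknown, so a deeper library can give more peaks.

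Peaks and summits were joined by name with Python 3.11.15, pandas 2.3.3, NumPy 2.4.6, SciPy 1.17.1 and pysam 0.24.0. Gene bodies and start sites came from GENCODE M21, promoters were within 2 kb of a start, overlaps needed 1 bp, and overlapping or touching peaks of both arms were merged into regions. Members, lists and comparisons were chosen with earlier results of these data known. Text names all 9 genes, in each the regions with the highest FLAG and BRG1 summit, the 3 genes of each pathway list with the largest summed differences in FLAG and BRG1 peak number and the 3 nearest profiles, and 1 gene named by this rule is not reported here; other regions and genes were chosen after their values were seen. Region classes and window counts were tested on simulated data.

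Intervals are 95% (Wilson, exact binomial, exact Poisson or order statistics). Alternatives were score, list size, height, window, merging and motif window settings and each locus left out. No comparison had a test.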

Additional observations from a re-analysis of the deposited data

How the results depend on the processing

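Of 134 values recomputed under the alternatives fixed with the design, 122 stayed inside the counting interval of the value reported, 11 lay outside, and 1, whose interval had left out no difference, crossed to the other direction. The last was the ratio of BRG1 peak numbers at the 9 loci, 0.957 with each list cut to its 20000 best-scoring peaks. Such a cut fixes the ratio over the whole lists at 1, so its values cannot be set beside ratios from all listed peaks. Values whose interval had held no difference also crossed, the peak ratio of FLAG to 0.833 and of H3K27ac to 0.793 under that cut, that of H3K27ac to 0.935 with summits of at least 15 tags, and the median log2 BRG1 height ratio to 0.06 with summits of at least 15 tags, 0.06 with 50 kb each side and 0.14 with scores in place of heights. With windows of 100 bp each side of the summits in place of whole peaks, the shared part was 44.7% (FLAG), 32.8% (BRG1), 32.4% (H3K27ac) and 38.8% (H3K4me1) of regions, since shorter windows overlap less often. The shared part of H3K4me1 regions was 32.3% where scores reached 100 or more, 31.8% in the 20000 best-scoring peaks and 43.4% with summits of at least 15 tags. FLAG peaks overlapped BRG1 in 72.2% (NanogWT) and 86.7% (NanogBiD) among the 20000 best-scoring peaks, in 51.6% and 66.7% at scores of 100 or more and in 53.8% and 59% with summits of at least 15 tags. The share of NanogWT FLAG summits with a TEAD match was 0 within 25 bp. Except for the shorter windows, the cause was not tested. With each locus left out in turn, chosen after seeing the data, 144 of 144 values stayed inside, and the BRG1 ratio ranged from 1.47 to 1.73, but its interval held 1 without Tead1, Tead4, Wwtr1 or Ankrd1, the median log2 BRG1 height ratio was 0.03 without Tead3, Tead4 or Wwtr1, and that of FLAG ranged from 0.12 to 0.31. No paired analysis was possible because a group was a single merged list and carried no replicate number. Depth is unknown and many summits had few tags. No single height ratio, of shared regions or of the highest summits of a locus, had a counting interval that left out 1.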
